A study of Homo sapiens with 8 samples.

Results

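Chromatin regions with an accessibility peak in every library except those of cells kept on the soft matrix for 2 days were described in LX-2, an immortalised cell line derived from human hepatic stellate cells. ATAC-seq, in which a transposase inserts sequencing adapters into open chromatin, had been run on wild-type cells grown on a hydrogel labelled 2K (soft, about 2 kPa) or 40K (stiff, about 40 kPa) and collected after 2 days (D2) or 4 days (D4). The resulting 4 groups, named by day and matrix (D2 soft to D4 stiff), shared the line and genotype and differed, by the labels, in matrix and time only, with 2 replicate libraries each, and each library was a peak list called on its own. One line stands in for stellate cells here, and the labels do not say whether replicates came from separate cultures, so that p-values measure only the spread between these libraries. The 8 lists were merged wherever peaks overlapped by at least 1 bp, which gave 102366 regions. Of these, 1277 regions had a peak in all 6 libraries of D2 stiff, D4 soft and D4 stiff and in neither library of D2 soft. They were chosen by these peak calls, so that their absence from D2 soft is a description and no result.

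Hepatic stellate cells store vitamin A in the normal liver and turn into contractile, matrix-producing myofibroblasts when the liver is injured, a change that a stiff matrix promotes. Open chromatin marks promoters, where transcription starts, and enhancers, which lie away from promoters, within genes or between them, and are bound by transcription factors. AP-1 factors (dimers of JUN, FOS and ATF family proteins) and TEAD factors (which carry the YAP co-activator to DNA) bind many enhancers of adherent mesenchymal cells, whereas GC boxes, bound by SP-family factors, are a common feature of promoters.

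To show what these regions look like, the 101 bases around the summit (the position of highest signal) are given in the hg19 build, on the plus strand, for regions among the strongest that hold an AP-1 motif (the first 2), a TEAD motif (the next 3) or, in promoters, a GC box (the last 2). Strength here is the mean rank of the fold enrichment over the 6 libraries. Capitals mark the AP-1 letters TGACTCA, the TEAD letters GGAATG or the GC box letters GGGCGG, or the reverse complements of these.
R518 (nearest coding start GATA6, chr18:19803767-19803867): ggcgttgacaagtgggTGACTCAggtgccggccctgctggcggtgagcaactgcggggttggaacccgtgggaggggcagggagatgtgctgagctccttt
R296 (intergenic, chr12:127901473-127901573): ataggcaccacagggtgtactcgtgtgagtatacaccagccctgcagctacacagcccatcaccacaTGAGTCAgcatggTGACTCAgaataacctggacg
R312 (chr13:45810321-45810421): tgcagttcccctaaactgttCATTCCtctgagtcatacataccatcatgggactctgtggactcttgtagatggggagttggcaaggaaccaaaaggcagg
R487 (chr17:44805122-44805222): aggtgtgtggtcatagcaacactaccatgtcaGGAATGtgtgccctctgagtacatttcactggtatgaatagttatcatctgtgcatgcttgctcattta
R465 (chr16:69899708-69899808): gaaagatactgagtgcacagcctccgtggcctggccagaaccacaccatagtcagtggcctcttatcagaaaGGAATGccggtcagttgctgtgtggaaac
R385 (promoter, chr15:20961456-20961556): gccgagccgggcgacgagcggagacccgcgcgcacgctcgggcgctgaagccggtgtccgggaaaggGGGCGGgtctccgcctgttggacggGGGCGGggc
R442 (promoter of PDXDC1, chr16:15068815-15068915): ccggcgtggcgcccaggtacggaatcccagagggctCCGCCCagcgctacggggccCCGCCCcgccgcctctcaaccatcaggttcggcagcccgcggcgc

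R296 carried 2 copies of the AP-1 letters within 50 bases of its summit. The window of R312 also held the AP-1 letters, left in lower case.

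The libraries differed in depth, and this bears on every count of missing peaks. Depth was estimated from each list as the background number of fragments per kb of genome, and it was 0.780 in D2 soft replicate 1 and 2.08 in D2 soft replicate 2, against 2.19 to 3.15 in the 6 other libraries. The D2 soft lists held 29789 and 55754 peaks and the other lists 56362 to 72840. Of 12 stellate or mesenchymal marker genes, 7 had a peak within 1 kb of a start in all 8 libraries and 3 (COL3A1, DES and LRAT) in none. Of 6 hepatocyte markers 0 had one in all 8 libraries and 4 in none, ALB and HNF4A among them, whereas the macrophage markers CD68 and CD14 had one in all 8 and PTPRC, SPI1 and CD163 in none. Of the endothelial markers, KDR had one in 7 libraries and TEK in 2, and CDH5 and STAB2 in none.

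Most of the absences in D2 soft were in its shallow library. Among the 37241 regions with a peak in all 6 libraries outside D2 soft, D2 soft replicate 1 had no peak in 33.9% and D2 soft replicate 2 in 4.47%. Both lacked a peak in 1277 (3.43%), replicate 1 alone lacked one in 11332, and replicate 2 alone in 386. Where replicate 1 had no peak, replicate 2 had none in 10.1% of regions, and where replicate 1 had a peak, replicate 2 had none in 1.57%. The same comparison gave 12.0% and 0.717% for the replicates of D2 stiff, and 28.8% and 2.28% for those of D4 soft. In each of these groups a region missing in replicate 1 was thus more often missing in replicate 2 than one present there. The rule applied to the other groups in place of D2 soft gave 61 regions missing only in D2 stiff, 95 only in D4 soft and 7 only in D4 stiff. Without D2 soft replicate 1 the rule gave 1662 regions, and without D2 soft replicate 2 it gave 12613.

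Several ways of evening out the depth, wholly or in part, were compared. When each list was cut to the same number of its strongest peaks, 230 regions were missing only in D2 soft, 163 only in D2 stiff, 126 only in D4 soft and 65 only in D4 stiff. The 230 regions included 56 of the 1277 (4.39%), which made up 24.3% of the 230. When the pileups of the other lists were scaled down to the depth of D2 soft replicate 2, the counts were 1256, 59, 98 and 8 in the same order. All 1256 were among the 1277, which was all but fixed, as this scaling only removed peaks outside D2 soft. D2 soft replicate 1 stayed shallower than the other lists in this setting. Scaled to the depth of D2 soft replicate 1, the counts were 570, 72, 251 and 13, and 454 of the 1277 (35.6%) still met the rule. D2 soft thus had the highest of the 4 counts in each of these settings. The scaling rounded pileups without a random draw, so the scaled lists did not take on the counting error of a shallow library. Scaling to D2 soft replicate 1 also removed peaks of D2 soft replicate 2. The scaled counts were therefore not compared on even terms, and whether depth accounts for the D2 soft count was not tested by them.

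**Figure D1:**
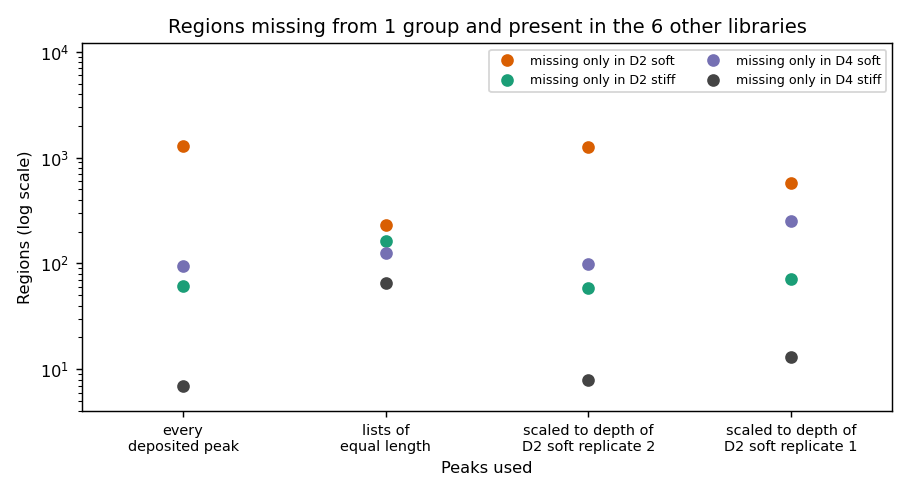
Number of merged regions (log scale) with no peak in the 2 libraries of 1 group and a peak in the 6 others, for each group left out (colour) and with every deposited peak, lists of equal length, or lists scaled to the depth of a D2 soft library. The D2 soft count ranged from 230 to 1277, and it was highest of the 4 groups in each setting. Scaling used no random draw, so it did not add the counting error of a shallow library.

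The regions were weak where they were found. Fold enrichment is the fragment pileup at the summit over the local background of the same library, as deposited, and values of different libraries set side by side were not adjusted to each other. Its median over the 1277 regions was 6.44 and 7.41 (D2 stiff), 6.42 and 5.81 (D4 soft) and 7.14 and 7.51 (D4 stiff). The 24246 regions with a peak in every library had medians of 8.71 to 10.7 in the same 6 lists. Median pileup at the summit was 10 to 17 fragments in the 1277 regions and 22 to 44 in the regions of every library. In each of the 6 libraries the median of the 1277 regions was thus the lower one. The sets missing only in D2 stiff or only in D4 soft were about as weak. Median fold enrichment was 5.95 to 7.05 in the D4 lists for the 61 regions missing only in D2 stiff. For the 95 regions missing only in D4 soft it was 6.35 to 7.56 in the D2 stiff and D4 stiff lists. On the mean rank over the 6 libraries, where 100 is the strongest peak of a list, the 1277 regions had a median of 41.8 with quartiles of 30.1 and 54.9, and 858 (67.2%) lay under 50, against 16.3% of the regions of every library. Another 59 regions (4.62%) lay over 75. Of these 59, 24 held an AP-1 motif and 5 lay in promoters.

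**Figure D2:**
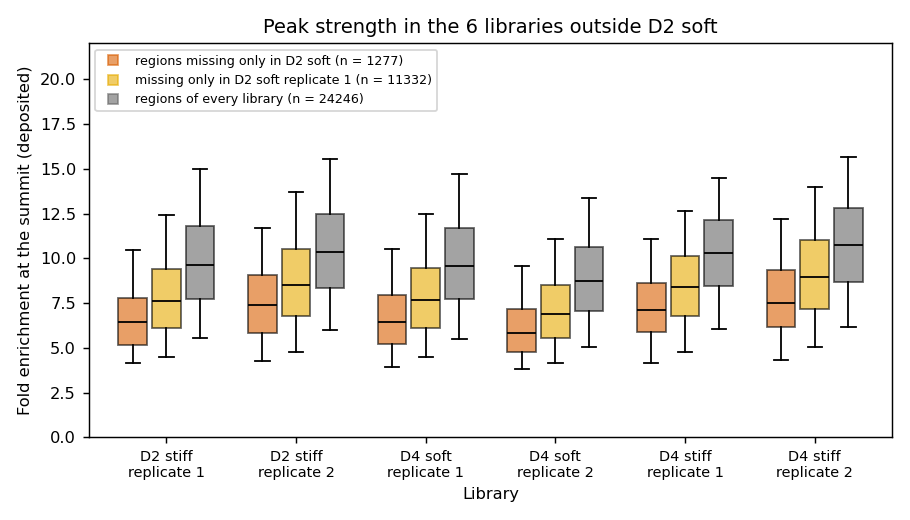
Deposited fold enrichment at the summit in each of the 6 libraries outside D2 soft, for the 1277 regions missing only in D2 soft, the 11332 missing only in D2 soft replicate 1 and the 24246 found in every library. Boxes give the quartiles and median and whiskers the 5th and 95th percentiles, and in each library the median rose in that order, from 5.81 to 7.51 up to 8.71 to 10.7.

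Missing peaks became rarer with strength in D2 soft and elsewhere. D2 soft replicate 2 had no peak in 14.6% of regions with a mean rank up to 30 and in 0.339% of those above 90, and D2 soft replicate 1 in 65.7% and 8.79%. D2 stiff replicate 2, the nearest to D2 soft replicate 2 in depth, went from 6.55% to 0%, D2 stiff replicate 1 from 12.7% to 0% and D4 soft replicate 2 from 13.3% to 0%. Both D2 soft libraries lacked a peak in 12.3% of regions at the lowest ranks and in 9 of 4427 regions (0.203%) above 90.

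**Figure D3:**
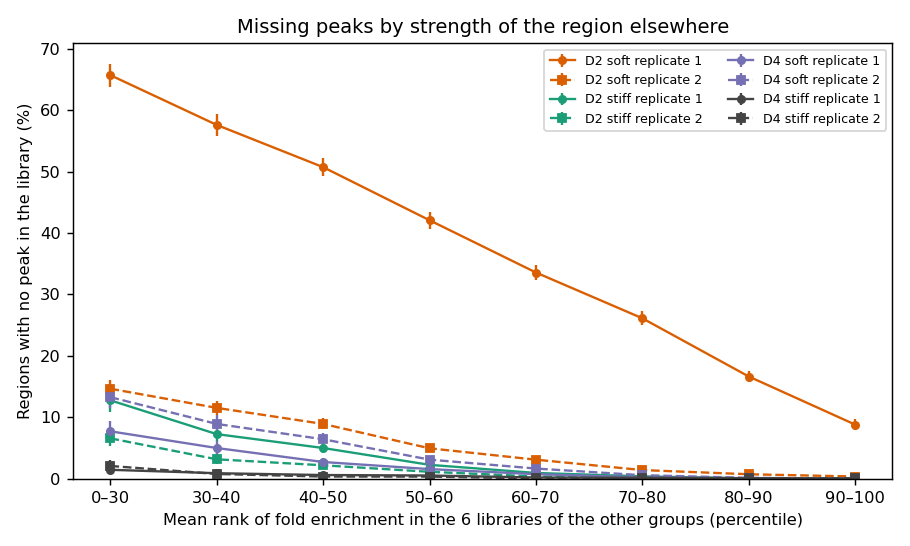
Share of regions (%) with no peak in a library, by the mean rank of fold enrichment in the 6 libraries of the other groups (percentile, 100 the strongest), with 95% Wilson intervals. D2 soft replicate 1 fell from 65.7% to 8.79% and the 7 other libraries from at most 14.6% to at most 0.339%.

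What D2 soft would have shown at these regions with the enrichment of the other libraries was worked out from their depth. The scaled pileup had a median of 5.07 fragments in D2 soft replicate 1, and 1117 of the 1277 regions (87.5%) passed the lowest p-value cut-off of that list. In D2 soft replicate 2 the median was 10.9 fragments, and all 1277 passed. Without the ratio, 1172 passed in D2 soft replicate 1 and 1276 in D2 soft replicate 2. The regions missing only in D2 stiff, D4 soft or D4 stiff also all passed in their own libraries on this measure, so it did not tell D2 soft from the other groups. Whether depth accounts for the missing peaks was not tested further, since the reads were not used here.

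At the edge of the rule, the region with the weakest peak was R528, in an intron of CTIF (chr18:46200329-46201015), whose weakest peak had a q-value of 0.0468 and whose fold enrichment ran from 3.08 to 5.46. The first region outside it (chr20:25842042-25842658) had a peak in D2 soft replicate 1 with a q-value of 0.0490 and a pileup of 5 fragments, beside fold enrichments of 4.03 to 7.65 in the 6 other libraries. The weakest of the 6 peaks had a q-value above 0.01 in 38 of the 1277 regions (2.98%).

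Most of the regions lay away from promoters. By the position of their centre, 181 (14.2%, 95% Wilson interval 12.4 to 16.2) lay within 1 kb of a transcription start, 64 (5.01%) in an exon, 671 (52.5%) in an intron and 361 (28.3%) between genes. The promoter share was 37.9% (37.3 to 38.5) in the regions of every library and 25.4% (24.6 to 26.2) in those missing only in D2 soft replicate 1, and neither interval overlapped that of the 1277. Weighting the regions of every library to the strengths of the 1277 gave a promoter share of 39.4%, and weighting them to their GC content gave 21.8%. For the regions missing only in D2 soft replicate 1 the same weightings gave 30.2% and 15.95%, the latter inside the interval of the 1277. Low promoter shares were also found in the smaller sets, with 12.2% (9.28 to 15.8) of the 386 regions missing only in D2 soft replicate 2, 11.5% (5.67 to 21.8) of the 61 missing only in D2 stiff and 10.5% (5.82 to 18.3) of the 95 missing only in D4 soft, and these intervals overlapped that of the 1277. Median distance to a transcription start was 13609 bp, against 5252.5 bp in the regions of every library. The regions were also narrower, with a median of 645 bp against 975 bp, and had a median GC content of 45.8% against 52.2% within 100 bases of the summit. Median width was 698 bp in the regions missing only in D2 stiff and 694 bp in those missing only in D4 soft. Seen the other way, 1.47% of the promoter regions found in all 6 libraries were missing in both D2 soft lists, compared with 4.50% of those in introns and 4.17% of those between genes.

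D2 soft peaks were mostly not close by. A peak of a D2 soft library lay within 1 kb of 49 regions (3.84%) and within 5 kb of 328 (25.7%), and the median distance was 10778 bp. A region found in every library lay within 5 kb of 147 of the 1277 (11.5%), compared with 11.3% of those missing only in D2 soft replicate 1.

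Short motifs were looked for on either strand, up to 100 bp from the summit. AP-1 letters were present in 476 of the 1277 regions (37.3%, 34.7 to 39.96), in 28.6% (28.0 to 29.1) of the regions of every library, in 31.7% (30.8 to 32.5) of those missing only in D2 soft replicate 1, and in 30.2% of all 75501 regions found in 2 or more libraries. The share was 35.2% (30.6 to 40.1) in those missing only in D2 soft replicate 2, 28.4% (20.3 to 38.2) in those missing only in D4 soft and 55.7% (43.3 to 67.5) in those missing only in D2 stiff, the last above the interval of the 1277. Outside promoters the AP-1 share was 40.7% (37.8 to 43.6) in the 1277, 41.3% (40.5 to 42.0) in the regions of every library and 39.2% (38.2 to 40.3) in those missing only in D2 soft replicate 1, and these intervals overlapped. After weighting to the strengths of the 1277, the last 2 shares were 34.7% and 35.6%, both under the interval of the 1277 outside promoters. With promoters included, weighting by GC content gave an AP-1 share of 35.2% in the regions of every library. It gave 35.8% in those missing only in D2 soft replicate 1. Both lay inside the interval of all 1277 regions (34.7 to 39.96). Weighting by strength, also with promoters included, gave 24.4% and 27.4%, both under that interval. TEAD letters were found in 266 regions (20.8%, 18.7 to 23.1), compared with 18.2% in the regions of every library and 19.1% in all regions. Outside promoters the TEAD shares were 22.7% and 23.6%. Both letters occurred together in 80 of the 1277 regions (6.26%) and at least 1 of them in 662 (51.8%).

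Without D2 soft replicate 2, when 12613 regions met the rule, the promoter share was 24.2% and the GC box share 18.6%. The GC box was found in 133 regions (10.4%, 8.86 to 12.2) and in 25.7% of the regions of every library, a share that was 12.7% after weighting to the GC content of the 1277 and 16.05% in all regions. It was found in 9.07% (6.59 to 12.3) of the regions missing only in D2 soft replicate 2, in 12.6% of those missing only in D4 soft and in 0 of the 61 missing only in D2 stiff (0 to 5.92). The ETS letters CCGGAAG, typical of promoters, were found in 1.801% against 6.47%, and the RUNX letters TGTGGT in 18.0% against 15.6%. NF-Y letters (CCAAT) were present in 22.6% against 26.4%, and the NFI letters (TTGGCA) in 12.5% against 10.2%. For the E-box (CAGCTG) the shares were 12.7% and 14.4%, and for FOX letters (TGTTTAC) 3.60% and 2.56%. The remaining motifs were the CTCF core (CCACNAGG) with 3.45% and 3.79%, C/EBP (TTGCNNAA) with 9.16% and 7.70%, and the cyclic AMP response element (TGACGTCA) with 0.548% and 1.01%. No motif's letters are contained in those of another. These shares describe letters near summits and say nothing of which factor was bound.

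**Figure D4:**
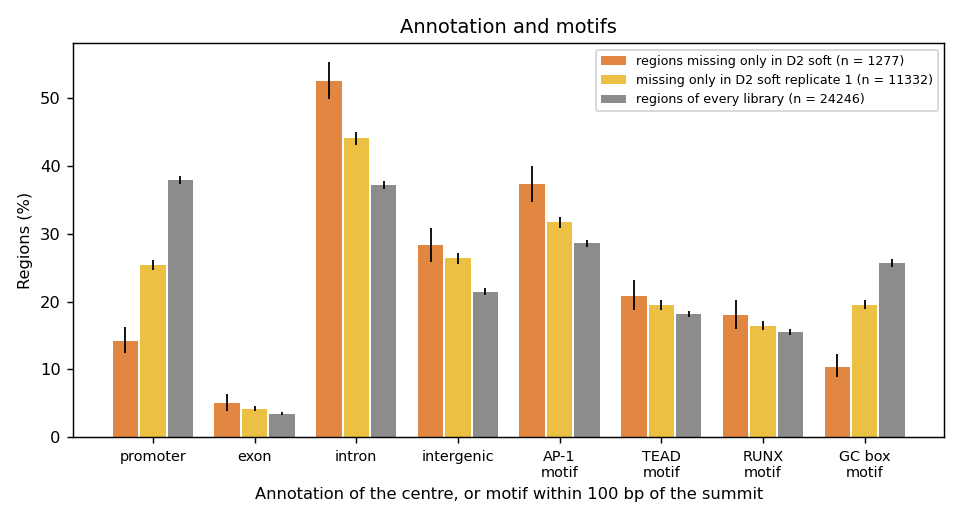
Share (%) of regions by annotation of the centre and by motif letters within 100 bp of the summit, with 95% Wilson intervals, for the 1277 regions missing only in D2 soft, the 11332 missing only in D2 soft replicate 1 and the 24246 of every library. Promoters (14.2%) and GC boxes (10.4%) were lowest and introns (52.5%) and AP-1 letters (37.3%) highest in the 1277 regions among these 3 sets.

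The strongest of the 1277 regions was R698 (chr21:9695891-9696250), in an intron of the unnamed gene ENSG00000286033, with fold enrichments of 17.7 and 19.8 (D2 stiff), 19.0 and 15.3 (D4 soft) and 16.5 and 20.4 (D4 stiff). At this level D2 soft replicate 2 would have had a pileup of 36.8 fragments, scaled by the lowest background without the ratio above. The 3 groups overlapped there. The nearest coding start was 1294803 bp away, and no filter for hard-to-map sequence was applied here, at R698 or any other region. R518 (chr18:19803440-19804077), 52865 bp from the nearest coding start, that of the transcription factor GATA6, had 11.4 and 12.9 (D2 stiff), 14.1 and 10.6 (D4 soft) and 13.4 and 17.0 (D4 stiff), so that both D4 stiff values lay above both D2 stiff values. Others among the 10 strongest were R1216 (an exon of ENSG00000226566), R420 (an intron of NRG4, a growth factor of the epidermal growth factor family), R385, R296, R510, R348 and R257 (an intron of PDE3A, a phosphodiesterase that breaks down cyclic nucleotides), with fold enrichments between 9.09 and 18.7.

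Among coding genes with a start within 1 kb, strong regions were those of PDXDC1 (8.18 to 13.8), the zinc finger gene ZNF134 (7.03 to 10.8), DCLK1, a kinase that binds microtubules (5.88 to 10.9), TRIM61 (6.76 to 10.7), EPCAM (6.43 to 12.4), the calcium sensor HPCAL1 (5.99 to 11.4) and GSDMA, a gasdermin (6.17 to 9.18). EPCAM encodes an epithelial adhesion molecule that marks cholangiocytes. Its region (chr2:47571630-47572656) had 12.4 and 6.43 (D2 stiff), 8.80 and 8.78 (D4 soft) and 6.74 and 7.43 (D4 stiff). It was the only 1 of 4 cholangiocyte or epithelial markers with a promoter peak, and KRT19, KRT7 and CDH1 had none in any library.

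Genes were taken from 12 lists on matrix, adhesion, contraction, signalling, transcription factors and other cell types, in which 25 of 351 genes had at least 1 of the regions in the gene or within 5 kb of it, beside 808 of all 20149 coding genes (4.01%). A gene with more regions of all 6 libraries has more chances to hold one of these, so the counts of genes were not compared on even terms. Of all coding genes, 14686 had a region of all 6 libraries, and the share among those was 5.50%. Counted per region, as below, some lists lay above all coding genes and others under them. The lists also differ in gene length (a median of 128 kb for the collagens and 27.2 kb for all coding genes), and a longer gene offers more room for a region. Collagen genes had one in 2 of 27 and matrix glycoproteins and proteoglycans in 4 of 40, with 4 of 81 and 5 of 124 regions. The collagen regions made up 4.94% and the glycoprotein regions 4.03% of the regions of all 6 libraries at those genes, against 2.75% at all coding genes. The share was also higher for stellate lineage and mesenchymal transition factors (4.59%, or 5 of 109 regions), AP-1 and ATF factors (8.57%, or 3 of 35) and macrophage and lymphocyte genes (12.5%, or 2 of 16). It was lower for the YAP and TEAD targets (0.826%), TGF-beta and SMAD genes (1.16%), growth factors and receptors (1.299%), crosslinking and proteolysis genes (1.52%), actin and contraction genes (1.56%), integrin and focal adhesion genes (1.92%) and hepatocyte genes (0 of 6 regions).

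At COL1A2, a chain of type I collagen and a main product of activated stellate cells, region R1101 (chr7:94024311-94025330) had its centre 614 bp from the start, and it was the only region of all 6 libraries at this gene. Its fold enrichment was 8.19 and 9.93 (D2 stiff), 5.14 and 6.31 (D4 soft) and 6.80 and 7.56 (D4 stiff), which put both D2 stiff values above all others. By limma (described below) its adjusted p was 0.721 for D4 stiff minus D2 stiff and 0.611 for D4 soft minus D2 stiff. Orderings of the 6 values at this and other named regions are descriptions only, and limma called 0 of the 1277 regions. The nearest D2 soft peak was 12314 bp from R1101. The pileup scaled to D2 soft replicate 2 by the lowest background, without the ratio above, was 10.2 fragments. A further 3 regions lay in introns of COL4A2, a chain of the basement membrane collagen. Of these R337 (chr13:111124045-111124507) was strongest, at 5.39 and 5.49 (D2 stiff), 6.60 and 5.44 (D4 soft) and 7.30 and 7.32 (D4 stiff), the last 2 being the highest of the 6. COL1A1, the partner chain of COL1A2, had a promoter peak in all 8 libraries.

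Other matrix genes with a region were VCAN (versican, a large proteoglycan; 7.73 to 9.14), LAMA4 (a laminin chain, with 2 regions), EFEMP1 (an extracellular fibulin; 4.21 to 8.44) and AGRN (agrin). The stronger LAMA4 region, R1034 (chr6:112438434-112439224), had 6.97 and 7.61 (D2 stiff), 9.23 and 8.71 (D4 soft) and 8.45 and 8.42 (D4 stiff). Here both D4 soft values were the highest. Of the 38 crosslinking and proteolysis genes 2 had a region, namely MMP16, a membrane-bound metalloproteinase (4.09 to 6.77), and LOXL1, a lysyl oxidase.

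Integrin and focal adhesion genes had a region in 3 of 36. The strongest was R146 (chr10:75837454-75838238) in an intron of VCL, which encodes vinculin, a link between integrins and actin. Its values were 10.7 and 11.4 (D2 stiff), 9.82 and 10.6 (D4 soft) and 9.94 and 14.5 (D4 stiff), and a D2 soft peak lay 1221 bp away. The others were LPP, a focal adhesion protein (5.90 to 7.70), and ITGA2, a collagen-binding integrin chain (4.36 to 8.81). Of 40 actin and contraction genes, CDC42EP3 (6.87 to 9.72) and CNN3, a calponin (5.12 to 8.38), had one. The list of YAP and TEAD targets had 1 of 26 genes, RBMS3, and TGF-beta and SMAD genes 1 of 29, SMURF2, a ubiquitin ligase that acts on that pathway.

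AP-1 and ATF factor genes had a region in 3 of 19, with 1 region each, out of the 35 regions of all 6 libraries at these genes. R553 (chr19:18385405-18386150), within 5 kb of JUND but 468 bp from the start of IQCN, had 6.67 and 9.44 (D2 stiff), 6.48 and 7.70 (D4 soft) and 5.82 and 6.60 (D4 stiff). R98 near ATF3, a stress-induced factor, ran from 4.58 to 6.23, among the weaker regions.

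Transcription factors of the stellate lineage or of mesenchymal transition had a region in 4 of 31 genes, FOXP1, RXRA, RUNX1 and GATA4. In RUNX1, which had 2 of the regions among 30 found in all 6 libraries, the stronger was R707 (chr21:36897462-36898149), with 6.23 and 7.15 (D2 stiff), 5.47 and 6.92 (D4 soft) and 9.49 and 7.86 (D4 stiff). Both D4 stiff values were the highest there. FOXP1 ran from 7.56 to 13.1 and RXRA, a retinoid receptor, from 5.59 to 12.3. The growth factor list had 1 of 27, MET, the receptor of hepatocyte growth factor (5.49 to 8.79). Hepatocyte genes had a region in 0 of 22 and macrophage and lymphocyte genes in 2 of 18, CSF1R (4.65 to 5.96) and CD79A (4.26 to 6.35).

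**Figure D5:**
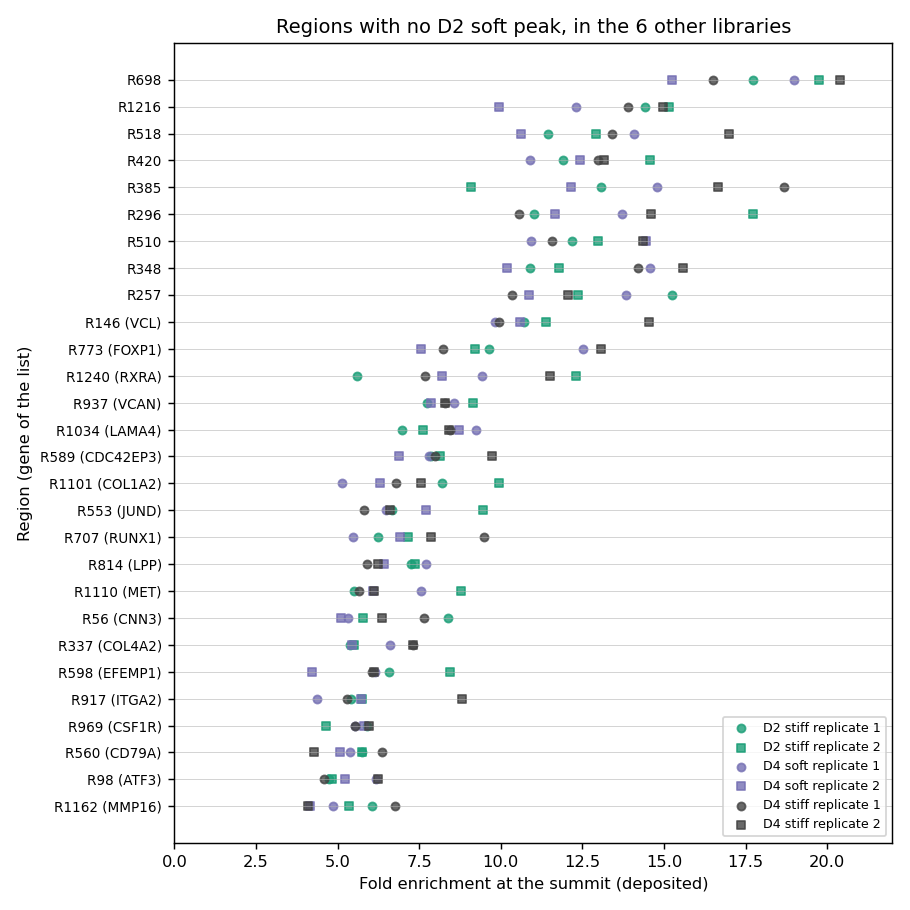
Deposited fold enrichment in the 6 libraries outside D2 soft (colour for the group, circle and square for replicates 1 and 2) for 9 of the 10 strongest regions and for the best region of 19 genes of the lists. The strongest, R698, ran from 15.3 to 20.4, and the groups of libraries interleave in most rows.

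Regions were dispersed. Only 16 lay within 10 kb of another of the 1277, and 92 (7.20%) within 50 kb. Of the 808 coding genes with a region, 45 had 2 or more and 3 had 3 or more. These were ZFHX3, a homeodomain factor, with 4 of its 13 regions, NPC1, a cholesterol transporter of lysosomes, with 3 of 6, and COL4A2 with 3 of 15. Among genes with 2, only FRRS1, KIAA0040 and ZNF582 had no other region of all 6 libraries. The NPC1 regions, all in introns, had fold enrichments from 4.78 to 12.6, and those of ZFHX3 from 3.98 to 8.48.

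The 3 groups in which the regions were present were then compared, since these contrasts do not use the D2 soft lists. The rule did require a peak in all 6 compared libraries, at the 1277 regions as at every region tested. Regions weak enough in a group to lack a peak there were thus left out beforehand, which limits the differences that could be seen. Fold enrichment was ranked over the 37241 regions of all 6 libraries, turned into normal scores and fitted with limma with 3 group means and Benjamini-Hochberg adjustment over all of them. For D4 stiff minus D4 soft, 0 of the 1277 regions were called at an adjusted p under 0.05 by limma, beside 0.00806% of all regions tested, and 128 (10.02%) had an unadjusted p under 0.05, beside 7.48% of all. For D4 stiff minus D2 stiff, limma called 0 regions, beside 0% of all, and 108 (8.46%) had an unadjusted p under 0.05, beside 6.90%. For D4 soft minus D2 stiff, limma also called 0, beside 0%, and 161 (12.6%) had an unadjusted p under 0.05, beside 7.66%. The regions missing only in D2 soft replicate 1, which were also weaker than those of every library, had 9.16%, 8.15% and 9.73%. The lowest adjusted p of any of the 1277 regions by limma was 0.216, 0.533 and 0.145 in the 3 contrasts. In simulated data the fit recovered only 7.5% of regions changed 2-fold. A count of 0 therefore does not show that the 3 groups were alike at these regions.

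The median difference in normal score over the 1277 regions was -0.00216, 0.00150 and -0.0183 in the same order, and over all regions -0.0192, -0.0208 and 0.00166. Split by direction, the unadjusted calls in D4 stiff minus D4 soft were 79 higher (6.19%) and 49 lower (3.84%), beside 4.24% and 3.24% of all regions. They were 57 (4.46%) and 51 (3.99%) in D4 stiff minus D2 stiff, beside 3.97% and 2.93%, and 78 (6.11%) and 83 (6.50%) in D4 soft minus D2 stiff, beside 3.73% and 3.92%.

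Ranks within each full list were then compared region by region. Both D4 stiff ranks lay above both D4 soft ranks in 346 regions (27.1%), beside 25.1% of all, and below them in 134 (10.5%), beside 14.1%. Against D2 stiff, D4 stiff was higher in 339 (26.5%), beside 24.5%, and lower in 126 (9.87%), beside 13.6%. D4 soft was higher than D2 stiff in 229 (17.9%), beside 17.6%, and lower in 241 (18.9%), beside 17.8%. The shares in the 1277 regions thus lay within 4 percentage points of those in all regions tested. At R385 (chr15:20961176-20961692), a promoter of the unnamed gene ENSG00000260409, the values were 13.1 and 9.09 (D2 stiff), 14.8 and 12.2 (D4 soft) and 18.7 and 16.6 (D4 stiff), and its adjusted p by limma for D4 stiff minus D2 stiff was 0.533.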

How the data were processed

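The regions, gene lists and motifs were chosen with earlier results of these data known. The labels and the study's methods state that reads were trimmed with Trim Galore and mapped to hg19 with Bowtie2 2.4.1, and that MACS2 called peaks per library at a q-value up to 0.05, without pooling. Picard and bedtools 2.24.0 are also listed, and other options are not given in the sources used here. The lists deposited by the authors give fold enrichment (a ratio to local background), −log10 p, −log10 q and a score, which is 10 times −log10 q and was not used. Peak names inside the lists carry other replicate numbers than the labels for some libraries, and the labels were used.

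The whole-number pileup behind each peak was recovered from fold enrichment and p (100% of 466883 peaks within 0.01 of the deposited −log10 p). Depth was the lowest background over the shortest peak, in fragments per kb, which assumes MACS2 defaults. Starts came from GENCODE release 44 on GRCh37 (110199 basic transcript starts). A promoter lay within 1 kb of a start and a gene held a region in its body or within 5 kb. Shares have 95% Wilson intervals, which cover counting error only, and weighted shares used 10 equal bins of the rank or GC content of the 1277 regions. Groups were compared with limma 3.58.1 in R 4.3.3, tested on simulated data first. In simulated counts for D4 stiff minus D4 soft it recovered 7.5% of regions changed 2-fold and 74% of those changed 4-fold. The simulated counts had counting error only. Named regions were the 10 strongest, the 8 strongest coding promoters, the best region of up to 20 genes of the lists, the 5 genes with most regions and the edge of the rule, and others mentioned by name only were added after their values were seen. Of these, 2 regions are not reported here. A permutation test of 2 libraries against 2 has a smallest p of 0.333, so none was used.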

Additional observations from a re-analysis of the deposited data

How the results depend on the processing

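D2 soft replicate 1 was shallow, values come from peaks only, and the signal in D2 soft below its list's threshold is unknown. The number of regions was 230 with lists of equal length, 570 with lists scaled to D2 soft replicate 1, and 3792 when 5 of the 6 other libraries sufficed. Leaving out 1 library gave 1404 to 12613, the highest without D2 soft replicate 2, and 2168 without D4 soft replicate 2. The other settings, merging up to 100 bp apart, 200 bp around summits, q up to 0.01, the depth of D2 soft replicate 2, no D2 soft peak within 500 bp and, chosen after seeing the data, regions up to 1000 bp long, gave counts within 1.5 times.

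With a 50 bp and a 250 bp window the AP-1 share was 24.0% and 42.9%, the TEAD share 13.1% and 35.6%, and the GC box share 6.81% and 15.4%. Outside promoters, a choice made after seeing the data, the AP-1 share was 40.7% and the GC box share 6.02%. With lists of equal length the TEAD share was 27.4% and the share near a D2 soft peak 0.870%. Leaving out 1 library gave 32.2% to 36.8% for AP-1, 19.6% to 22.9% for TEAD, 10.01% to 18.6% for the GC box, 13.0% to 24.2% for promoters and 2.05% to 4.51% for a D2 soft peak within 1 kb, with one end of each set by leaving out D2 soft replicate 2. Promoters were 11.1% within 500 bp and 20.7% within 2500 bp of a start, and a D2 soft peak lay within 500 bp of 1.25% and within 5000 bp of 25.7%. The cause of these differences was not tested beyond the wider or narrower windows themselves.

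With limma, each alternative (ranks of −log10 p, the replicate block, only the 4 libraries of a contrast, quantile-normalised log2 values, each library left out) called 0 of the regions in each of the 3 contrasts, as did the fit reported, so these counts say nothing about stability. Same-numbered replicates of D2 stiff, D4 soft and D4 stiff did not deviate together (correlations -0.0360, 0.00803 and -0.0126). D2 soft was not included, and such values cannot exclude that same-numbered libraries were handled together. The fit with the replicate block called 0 regions as well.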

Other observations

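The share of regions missing in both D2 soft lists differed between some chromosomes. Of the regions found in all 6 libraries outside D2 soft, 1.88% (95% Wilson interval 1.34 to 2.64) on chromosome 17 and 2.23% (1.53 to 3.22) on chromosome 19 were missing in both D2 soft lists, against 4.14% (3.31 to 5.18) on chromosome 4 and 4.22% (3.08 to 5.77) on chromosome 18. Over all chromosomes the share was 3.43%, which lay above the intervals of chromosomes 17 and 19 and inside those of chromosomes 4 and 18. These chromosomes were named after their values were seen, and no test was made. A region near HAND2, a transcription factor of stellate cells, was also among the 1277 (R890, in an exon), and its promoter had a peak within 1 kb in 6 libraries. The 61 regions missing only in D2 stiff and the 95 missing only in D4 soft had a median GC content of 44.8% each, compared with 45.8% in the 1277.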
